A study of Mus musculus with 9 samples.

Results

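The 10 genes described here are Btg2 and 9 members of the immediate early response, Fos, Fosb, Jun, Junb, Jund, Egr1, Ier2, Atf3 and Dusp1, out of 47729 genes counted in mouse midbrain dopamine (DA) neurons. They were found by gene symbol, which paired with 1 gene identifier each. They were selected on their levels in these libraries, since Btg2 and genes of the response to tissue dissociation stood higher in Dot1l(fl/fl). For the members, every comparison with the Dot1l(fl/fl) libraries is therefore a description without a test. The comparison that was tested is Dot1l(fl/+) against Dot1l(+/+), and its Dot1l(+/+) libraries are shared with the contrast that led to the choice. All 10 passed the filter on low counts, as did 17988 of the 47729 genes.

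Dot1l encodes a methyltransferase of histone H3. The neurons came from C57/Bl6 embryos at E15.75 that carried Pitx3-Cre/+, a Rosa-lox-stop-lox-YFP reporter and either no, 1 or 2 floxed Dot1l alleles, called Dot1l(+/+), Dot1l(fl/+) and Dot1l(fl/fl). Cre came from the Pitx3 locus, so all 3 genotypes shared 1 Pitx3 allele with Cre, and it acts in DA precursors that have left the cell cycle. Midbrains were dissociated with papain and cells with YFP were sorted, with several embryos pooled per library. Each litter gave 1 embryo of every genotype, but neither the labels nor the methods tie a replicate number to a set of litters. The 8 libraries were 3 of Dot1l(+/+), 3 of Dot1l(fl/+) and 2 of Dot1l(fl/fl), and Dot1l(fl/fl) 3 was not analysed here.

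Total counts ran from 13616922 to 43674673 per library, the 2 lowest being those of Dot1l(fl/fl). Dot1l itself stood at 105.2, 84.6 and 94.6 CPM, a unit of counts that corrects for library size, in Dot1l(+/+) 1 to 3, at 75.5, 65.6 and 76.2 in the Dot1l(fl/+) libraries, and at 64.9 and 99.1 in Dot1l(fl/fl) 1 and 2. The second of these lies inside the Dot1l(+/+) range, against its label, although reads outside the floxed segment also count towards the gene. It is called the library labelled Dot1l(fl/fl) 2, and the values of the members and the medians of the gene lists are also given without it. The DA markers Th, Ddc, Slc6a3, Nr4a2 and Pitx3 were present in every library, with summed levels of 10 DA markers of 5147 to 5684 CPM in Dot1l(+/+), 4884 to 5391 in Dot1l(fl/+) and 4238 to 4863 in Dot1l(fl/fl). As these are bulk samples, fewer cells of a type and less RNA per cell cannot be told apart.

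Immediate early genes are transcribed within minutes of a stimulus from factors already present in the cell, without new protein synthesis. In neurons they respond to activity and calcium, and in any tissue they respond to growth factors, stress and the enzymatic dissociation used to free cells for sorting. Fos and Jun proteins pair through leucine zippers to form the transcription factor AP-1. Much of the induction runs through ERK, JNK and p38 kinases, through serum response factor, which binds CArG boxes, and through CREB, which binds the cyclic AMP response element (CRE). Btg2 is an early gene of the BTG/TOB family that restrains proliferation, marks neurogenic divisions in the embryonic brain, and recruits the CCR4-NOT deadenylase to messenger RNA.

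The sequences before the starts of these genes are shown because CREB and serum response factor bind elements there. RefSeq windows on GRCm38.p6, from 250 bases before to 50 bases after the start, were present for 8 of the 10 members, and those of Egr1 and Ier2 were missing. The stretches from -200 to -51 are printed for the 5 members with a CRE core, TGACG or its reverse complement CGTCA, in that stretch, 5′ to 3′ on the gene's strand. Capitals mark the CRE core or the full palindromic CRE, TGACGTCA. The stretches lie at chr1:134079206-134079355 (minus strand) for Btg2, chr17:26508523-26508672 (minus) for Dusp1, chr12:85473690-85473839 (plus) for Fos, chr7:19310096-19310245 (minus) for Fosb and chr8:84978799-84978948 (minus) for Junb.
Btg2: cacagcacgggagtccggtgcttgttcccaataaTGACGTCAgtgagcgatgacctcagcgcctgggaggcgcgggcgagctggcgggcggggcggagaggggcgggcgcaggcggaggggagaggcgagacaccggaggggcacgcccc
Dusp1: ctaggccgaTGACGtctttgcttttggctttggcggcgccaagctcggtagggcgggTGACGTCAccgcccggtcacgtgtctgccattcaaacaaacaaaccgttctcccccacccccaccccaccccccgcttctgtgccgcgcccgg
Fos: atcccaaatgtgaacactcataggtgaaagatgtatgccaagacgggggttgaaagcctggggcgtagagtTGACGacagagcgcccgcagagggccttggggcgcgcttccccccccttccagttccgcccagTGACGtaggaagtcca
Fosb: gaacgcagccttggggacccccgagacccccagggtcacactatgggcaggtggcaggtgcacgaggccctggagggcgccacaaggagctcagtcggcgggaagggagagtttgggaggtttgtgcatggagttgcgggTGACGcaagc
Junb: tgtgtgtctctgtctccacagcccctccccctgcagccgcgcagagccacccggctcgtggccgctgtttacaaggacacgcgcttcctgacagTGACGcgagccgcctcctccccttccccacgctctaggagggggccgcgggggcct

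The full CRE was found at -166 to -159 of Btg2 and at -143 to -136 of Dusp1, counted back from the last base before the start. It was in none of the other 6 member windows, and 1.79% of all 32851 windows of this length held it. The CRE core without the full palindrome stood at -129 and -66 in Fos, -60 in Fosb, -106 in Junb and -7 in Atf3, and a further core at -191 of Dusp1. Searched on both strands, the core was in 6 of the 8 member windows, against 20.8% of all windows, and the full CRE contains it. The windows of Jun and Jund held none.

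No member window held a CArG box, present in 1.63% of all windows, or an AP-1 site, TGACTCA or TGAGTCA, present in 5.2%. These letters were absent from these 300 bases, and elements farther out were not searched. A TATA box, TATAAA or its reverse complement TTTATA, was present in 13.6% of all windows. Among the members Fos held one at -33, and Junb held one from the first base after the start. The RefSeq window of Jund begins upstream of the Jund start in the GENCODE annotation, so its lack of matches refers to that window. The GENCODE entry of Dusp1, at 26505590 to 26562128 on chromosome 17, begins farther upstream than the RefSeq start. The stretch printed for Dusp1 thus lies within that entry, and its matches refer to the RefSeq start.

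Btg2 was the member whose Dot1l(fl/fl) libraries lay farthest apart. Its level was 81.6, 80.2 and 66.9 CPM in Dot1l(+/+), 89.1, 92.8 and 72.4 in Dot1l(fl/+), and 107.8 and 145.0 in Dot1l(fl/fl), in the order of the replicate numbers here and throughout. Both Dot1l(fl/fl) values exceeded every other library, with the third replicates of the other genotypes lowest. The fitted log2 fold change was 0.73 ± 0.14 (SE) against Dot1l(+/+) and 0.58 ± 0.14 against Dot1l(fl/+), given as a description. Without the library labelled Dot1l(fl/fl) 2 they were 0.50 and 0.35, and without Dot1l(fl/fl) 1 they were 0.93 and 0.77. Between Dot1l(fl/+) and Dot1l(+/+) the change in Btg2 was 0.15 ± 0.13 (edgeR, Benjamini-Hochberg adjusted p = 0.983). The counts behind Btg2 were 1973 to 2892 per library, read from 2 exon blocks on chromosome 1 that no other annotated gene shares.

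Among the AP-1 subunits, Fos and Jun had a similar pattern over the genotypes. Fos, the inducible partner of Jun proteins, was read at 220.9, 238.8 and 192.1 CPM in Dot1l(+/+), 248.4, 236.5 and 201.9 in Dot1l(fl/+), and 280.2 and 271.0 in Dot1l(fl/fl). Jun, its main partner, stood at 502.4, 450.6 and 450.0 CPM in Dot1l(+/+), 512.7, 451.8 and 387.6 in Dot1l(fl/+), and 570.5 and 541.8 in Dot1l(fl/fl). For both genes the Dot1l(fl/fl) libraries lay above all others, while the other genotypes overlapped. Against Dot1l(+/+), Dot1l(fl/fl) differed by 0.34 ± 0.11 for Fos and 0.25 ± 0.10 for Jun on the log2 scale, and against Dot1l(fl/+) by 0.27 ± 0.11 and 0.30 ± 0.10. From Dot1l(fl/fl) 1 alone, its partner omitted, the differences were 0.37 for Fos and 0.29 for Jun against Dot1l(+/+), and 0.29 and 0.34 against Dot1l(fl/+).

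Junb, a Jun protein that often opposes Jun at growth genes, had levels of 60.9, 50.9 and 31.3 CPM in Dot1l(+/+), 55.9, 41.4 and 49.5 in Dot1l(fl/+), and 68.5 and 70.6 in Dot1l(fl/fl). The Dot1l(+/+) libraries lay farther from each other than the means of Dot1l(+/+) and Dot1l(fl/fl) did, through the low Dot1l(+/+) 3. The log2 fold change against Dot1l(+/+) was 0.55 ± 0.19, or 0.32 without Dot1l(+/+) 3 and 0.76 without Dot1l(+/+) 1. Against Dot1l(fl/+) it was 0.51 ± 0.19, and leaving out the library labelled Dot1l(fl/fl) 2 the differences were 0.53 and 0.49.

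Atf3, a stress-induced bZIP factor that represses as a homodimer and pairs with Jun proteins, was the lowest and the most variable member. It was measured at 11.7, 7.6 and 6.1 CPM in Dot1l(+/+), 7.7, 14.8 and 7.0 in Dot1l(fl/+), and 16.1 and 18.6 in Dot1l(fl/fl), from 199 to 422 counts per library. One heterozygous library, Dot1l(fl/+) 2, came close to the Dot1l(fl/fl) values. The log2 fold change was the largest of the 10 against Dot1l(+/+), 1.04 ± 0.31, and against Dot1l(fl/+), 0.81 ± 0.31, or 1.23 without Dot1l(fl/+) 2. From Dot1l(fl/fl) 1 alone it was 0.93 and 0.71. The SE of Atf3 was also the largest.

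Fosb and Jund, the remaining AP-1 subunits, did not separate the genotypes. Fosb, a close relative of Fos, stood at 92.2, 90.3 and 73.4 CPM in Dot1l(+/+), 89.7, 83.5 and 69.6 in Dot1l(fl/+), and 79.1 and 88.2 in Dot1l(fl/fl), with a log2 difference between Dot1l(fl/fl) and Dot1l(+/+) of -0.03 ± 0.14. Jund, a Jun protein made in resting cells, was at 385.0, 521.3 and 345.8 CPM in Dot1l(+/+), 462.1, 383.1 and 470.9 in Dot1l(fl/+), and 471.6 and 440.0 in Dot1l(fl/fl), a log2 difference of 0.13 ± 0.13. From Dot1l(fl/fl) 1 alone these were -0.11 for Fosb and 0.18 for Jund. In both, the Dot1l(fl/fl) libraries lay within the range of the other genotypes.

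Egr1, a zinc-finger activator and the classic activity marker, did not either. Its level was 52.7, 37.2 and 60.5 CPM in Dot1l(+/+), 58.1, 52.5 and 44.1 in Dot1l(fl/+), and 46.1 and 50.5 in Dot1l(fl/fl). The log2 difference of Dot1l(fl/fl) was -0.06 ± 0.18 from Dot1l(+/+) and -0.10 ± 0.18 from Dot1l(fl/+), so the fit leaves room for a change of either sign, and from Dot1l(fl/fl) 1 alone it was -0.12 and -0.16. Egr1 was also the member with its highest level in Dot1l(+/+) 3, the library in which 6 of the 10 members had their lowest.

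Dusp1, the phosphatase that switches off the kinases behind the early response, was at 108.1, 128.2 and 94.6 CPM in Dot1l(+/+), 128.7, 107.5 and 113.5 in Dot1l(fl/+), and 161.4 and 165.5 in Dot1l(fl/fl). The 2 Dot1l(fl/fl) libraries were close to each other and well above the rest. The log2 fold change was 0.57 ± 0.12 against Dot1l(+/+) and 0.49 ± 0.12 against Dot1l(fl/+), and leaving out the library labelled Dot1l(fl/fl) 2 these were 0.55 and 0.47.

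Ier2, a small nuclear early gene product, had 27.4, 31.2 and 29.0 CPM in Dot1l(+/+), 36.2, 31.4 and 30.0 in Dot1l(fl/+), and 42.1 and 37.7 in Dot1l(fl/fl). Both Dot1l(fl/fl) values were above the others, although Dot1l(fl/+) 1 came close to them. The log2 fold change was 0.45 ± 0.16 against Dot1l(+/+) and 0.29 ± 0.17 against Dot1l(fl/+), or 0.53 and 0.37 from Dot1l(fl/fl) 1 alone.

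**Figure D1:**
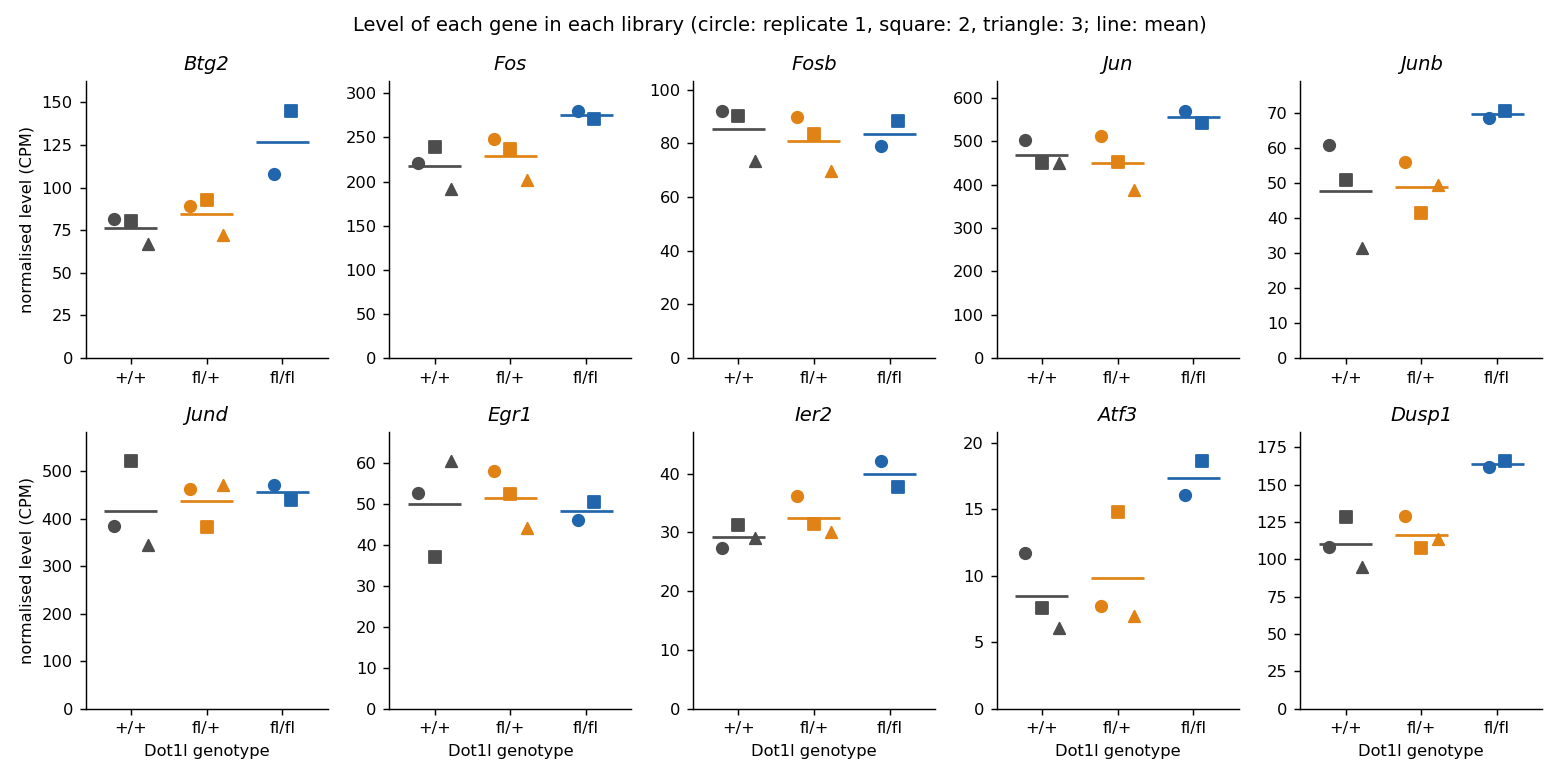
Level of the 10 genes in the 8 libraries, in CPM on an axis that starts at 0, by Dot1l genotype; points are libraries and lines are means. Btg2, Fos, Jun, Junb, Ier2, Atf3 and Dusp1 have both Dot1l(fl/fl) points above every other point, and Fosb, Jund and Egr1 do not.

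Counted over the 10 members, 7 had both Dot1l(fl/fl) libraries above every Dot1l(+/+) library, namely Btg2, Fos, Jun, Junb, Ier2, Atf3 and Dusp1, and none had both below. Of all genes tested, 12.1% stood above in this way and 11.6% below. The same 7 members had both Dot1l(fl/fl) libraries above every Dot1l(fl/+) library, against 10.2% of all genes above and 9.57% below. These counts describe how the members were chosen, and nothing is read from them. Omitting the library labelled Dot1l(fl/fl) 2 gave counts of 7 and 8, and with levels corrected for gene length and GC content 7 and 5, since Ier2 and Atf3 then overlapped Dot1l(fl/+).

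The median log2 fold change over the members was 0.40 between Dot1l(fl/fl) and Dot1l(+/+) and 0.30 between Dot1l(fl/fl) and Dot1l(fl/+), with all-gene medians of -0.003 and 0.001. Omitting the library labelled Dot1l(fl/fl) 2 gave member medians of 0.43 and 0.34. The contrasts share the Dot1l(fl/fl) libraries. Over all genes the edgeR test called 0% of genes in either, with 1667 and 723 genes at an unadjusted p under 0.05, and DESeq2 called 226 (4.77% of the 4736 genes it gave an adjusted p) and 1 (0.00556% of 17986). Genes to which DESeq2 gave no adjusted p could not be called by it. A gene list below without a call in these contrasts is therefore not shown to be unchanged.

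The tested comparison, Dot1l(fl/+) against Dot1l(+/+), asks whether loss of 1 allele moved these genes. None of the 10 members passed the test, and none had an unadjusted p under 0.05 by edgeR or a call by DESeq2; edgeR called 0% of all genes, with 903 at an unadjusted p under 0.05. The smallest member p was that of Btg2 (edgeR, unadjusted p = 0.231). The largest fitted change was that of Atf3, 0.22 ± 0.28, followed by Ier2 at 0.16 ± 0.15 and Btg2 at 0.15 ± 0.13.

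The other 7 members lay between -0.07 ± 0.12 for Fosb and 0.08 ± 0.10 for Fos, with Jun at -0.05 ± 0.09. No member had all Dot1l(fl/+) libraries above every Dot1l(+/+) library, as 5.56% of all genes did, or all below, as 5.97% did. The fit gave 8 members a higher and 2 a lower level, with a median of 0.07 against -0.007 over all genes, of which 49.0% were higher. Leaving out Dot1l(+/+) 3 took the member median to -0.01, and leaving out Dot1l(+/+) 2 took it to 0.15.

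**Figure D2:**
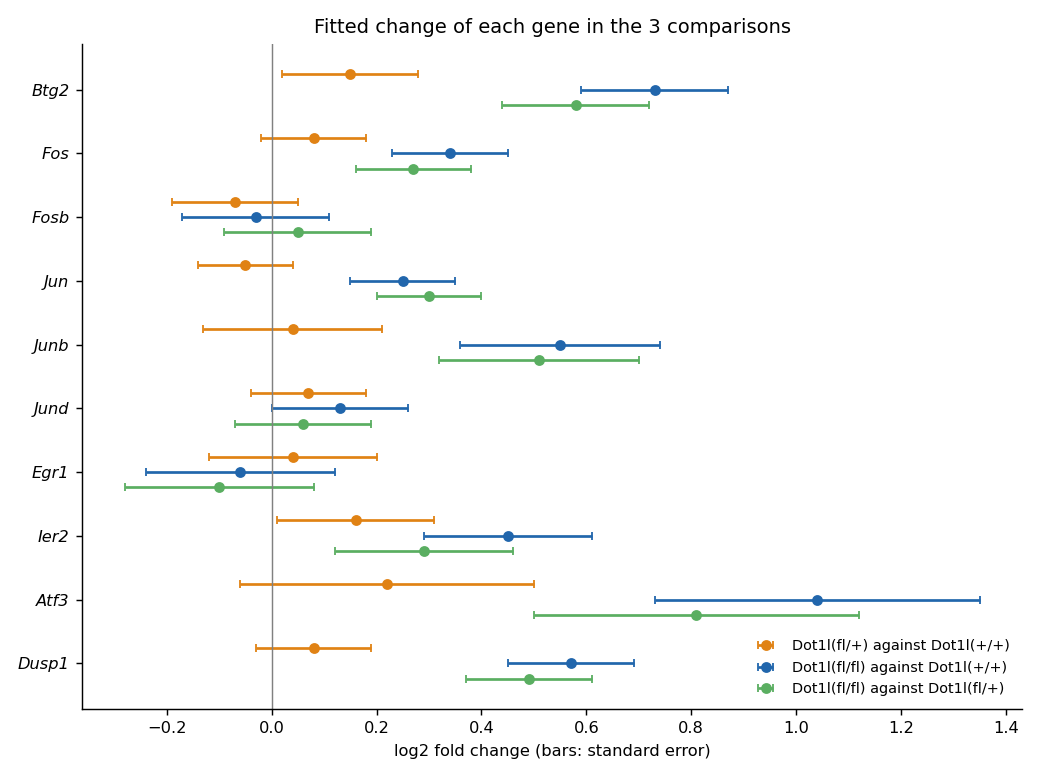
Fitted log2 fold change of each of the 10 genes, with its standard error as a bar, in the 3 comparisons. In orange, Dot1l(fl/+) against Dot1l(+/+), the values lie between -0.07 and 0.22; in blue and green, the Dot1l(fl/fl) comparisons reach 1.04 and 0.81 for Atf3.

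Levels can be compared between genes per kilobase of exon. On that scale Jund was the highest, at a mean of 261 CPM per kilobase over the 8 libraries, then Jun at 152 and Fos at 100. Their ranges over the libraries did not overlap, being 207 to 313, 122 to 179 and 81.7 to 119. They stood at percentiles 99.5, 98.8 and 97.8 of all genes tested.

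Dusp1 followed at 38.0 and Btg2 at 33.5 CPM per kilobase, and they overlapped, since Btg2 ranged from 24.4 to 52.9 and the lowest value of Dusp1 was 28.6. Junb at 23.3 and Ier2 at 21.8 could not be ordered, and Fosb at 13.3 and Egr1 at 11.2 overlapped as well. Atf3 was the lowest at 5.20, at percentile 55.9. Egr1 was thus far below Fos in the same libraries, at percentile 72.2 against 97.8.

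Some members have neighbours that limit how their reads can be assigned. On GRCm38, Jun (chromosome 4, 95049034 to 95052222, minus strand) shares 232 exonic bases with the antisense gene Junos. Junb (chromosome 8, 84974484 to 84978718, minus) shares 173 with Prdx2, and Jund (chromosome 8, 70698949 to 70700616, plus) shares 877 with Gm11175, both on the opposite strand. Dusp1 shares 11 bases with Ergic1. The kit keeps strand, but the strand setting of the counting is not given in the sources used here, so the levels of Jun, Junb and Jund may hold reads of these partners.

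Within a genotype, the members spread unequally. The SD of log2 CPM within genotypes, pooled over the 3, was 0.119 for Ier2, 0.142 for Fos and for Jun, 0.163 for Dusp1, 0.173 for Fosb, 0.207 for Btg2, 0.223 for Jund, 0.264 for Egr1, 0.343 for Junb and 0.482 for Atf3. The median over the members was 0.190, against 0.160 over the 9953 genes with a mean of 10 CPM or more and 0.265 over all genes tested.

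Some libraries were low or high for most members. Dot1l(+/+) 3 was the lowest of its genotype for 8 of the 10 members, and Dot1l(fl/+) 3 for 7. Dot1l(fl/+) 1 was the highest of its genotype for 7. Over all 8 libraries the highest value fell in Dot1l(fl/fl) 1 for 3 members and in the library labelled Dot1l(fl/fl) 2 for 4. Summed over the members, the level was 1350 to 1636 CPM in Dot1l(+/+), 1447 to 1689 in Dot1l(fl/+) and 1829 to 1843 in Dot1l(fl/fl).

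The members most alike across the 8 libraries were Fos and Ier2, with a root mean square (RMS) difference of 0.0996 in log2 CPM after centring each gene on its mean. Jun was nearest to Fos (0.109), and so was Dusp1 (0.131). Btg2 was nearest to Dusp1 (0.173) and farthest from Egr1 (0.399). Atf3 had no close neighbour, its nearest member being Btg2 at 0.334.

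Among 14263 genes with a mean of at least 1 CPM, the 5 most like Btg2 were Rem2 (RMS 0.122), Grm8 (0.134), Cd83 (0.140), Ppp1r15a (0.145) and Vgf (0.146). Rem2 encodes a small GTPase that restrains calcium channels, Grm8 a metabotropic glutamate receptor, Cd83 an immunoglobulin-family surface protein, Ppp1r15a the phosphatase subunit of the integrated stress response, and Vgf a secreted neuropeptide precursor. Rem2 ran at 49.2 to 59.6 CPM in Dot1l(+/+), 50.3 to 55.2 in Dot1l(fl/+), and 67.9 and 89.8 in Dot1l(fl/fl). Like Btg2, its highest value was in the library labelled Dot1l(fl/fl) 2. These genes were picked for likeness over the same libraries, so a pattern shared with Btg2 follows from the choice.

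Vgf stood at 40.7 to 55 CPM in Dot1l(+/+), 50.1 to 58.7 in Dot1l(fl/+), and 74.6 and 76.4 in Dot1l(fl/fl). The 5 genes most like Fos were Pfdn4 (0.0750), B230118H07Rik (0.0751), 3110043O21Rik (0.0800), Luzp2 (0.0808) and Prpsap2 (0.0822), none of which is in the early gene list below. Pfdn4, a prefoldin chaperone subunit, ran from 47.8 to 63.2 CPM over the 8 libraries.

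Other immediate early genes were taken from a list of 46 symbols that leaves the members out, of which 45 were tested, as Fosl1 was too low. The list holds Nr4a1 and Nr4a3 but not Nr4a2, which is counted with the DA markers. Nr4a2 differed by -0.40 ± 0.09 between Dot1l(fl/fl) and Dot1l(+/+). Against Dot1l(+/+), 34 of the 45 had a higher fitted level in Dot1l(fl/fl) and 11 a lower one, with a median log2 fold change of 0.28. None passed the edgeR test or a DESeq2 test, and 7 had an unadjusted p under 0.05. The list is of the response that led to the choice of the members. None of its comparisons with Dot1l(fl/fl), here or below, is therefore independent support.

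With the library labelled Dot1l(fl/fl) 2 omitted, the median of these 45 genes was 0.06, with 27 higher. In that library the median over the 45 genes was 0.37 log2 above the Dot1l(+/+) mean, and in Dot1l(fl/fl) 1 it was 0.09, next to the highest Dot1l(+/+) library at 0.08. For the members the same medians were 0.35 and 0.44.

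Of these 45 genes, 9 had both Dot1l(fl/fl) libraries above every Dot1l(+/+) library, against 12.1% of all genes, and 3 had both below, against 11.6%. The 9 were Nr4a1, Nfil3, Rgs2, Errfi1, Btg1, Gadd45g, Klf2, Id1 and Ctgf, and the 3 were Myc, Dusp4 and Cebpb. Nr4a1, an orphan nuclear receptor and activity gene, ran at 43, 50.4 and 17.7 CPM in Dot1l(+/+), 34.6, 31.8 and 22.2 in Dot1l(fl/+), and 50.7 and 71.6 in Dot1l(fl/fl). The third replicates of Dot1l(+/+) and Dot1l(fl/+) were again the lowest.

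The log2 fold change of Nr4a1 was 0.72 ± 0.27 against Dot1l(+/+) (edgeR adjusted p = 0.363), and with no filter on low counts it was 0.72 ± 0.16 (edgeR adjusted p = 0.00874). Against Dot1l(fl/+) it was 1.05 ± 0.27 (edgeR adjusted p = 0.925), and with no filter 1.04 ± 0.16 (edgeR adjusted p = 1.05e-06). Nfil3, a bZIP repressor, differed by 0.48 ± 0.17 (edgeR adjusted p = 0.331), and by 0.69 ± 0.15 without Dot1l(+/+) 2 (edgeR adjusted p = 0.0464). Both genes belong to the response that led to the choice and were named after their values were seen. Their p-values against Dot1l(+/+) and Dot1l(fl/+) are therefore no independent support. In the fit with the filter and all libraries, neither gene passed.

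The 4 most abundant of the list were Rhob, Klf6, Dusp4 and Rgs2. Rhob, a small GTPase, had a log2 fold change of 0.16 ± 0.10 between Dot1l(fl/fl) and Dot1l(+/+), and Klf6, a zinc-finger factor, 0.23 ± 0.12. Dusp4, a nuclear phosphatase of the ERK and JNK kinases and a relative of Dusp1, differed the other way, by -0.21 ± 0.10. Rgs2, which shortens G protein signals, differed by 0.32 ± 0.13. Their edgeR adjusted p-values were 0.425 to 0.659.

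Between Dot1l(fl/fl) and Dot1l(fl/+), 39 of the 45 had a higher fitted level, with a median of 0.26, or 0.12 with 29 higher without the library labelled Dot1l(fl/fl) 2. With the filter on low counts neither edgeR nor DESeq2 called any, and 10 had an unadjusted p under 0.05 by edgeR. Of the 45, 13 had both libraries above every Dot1l(fl/+) library and 0 had both below, where 10.2% of all genes stood above and 9.57% below. Between Dot1l(fl/+) and Dot1l(+/+), 17 of the 45 were higher and 28 lower, with a median of -0.08, no call by edgeR or DESeq2 and none at an unadjusted p under 0.05. All Dot1l(fl/+) libraries lay below every Dot1l(+/+) library for 3 of the 45 genes, against 5.97% of all genes, and above for 0, against 5.56%.

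**Figure D3:**
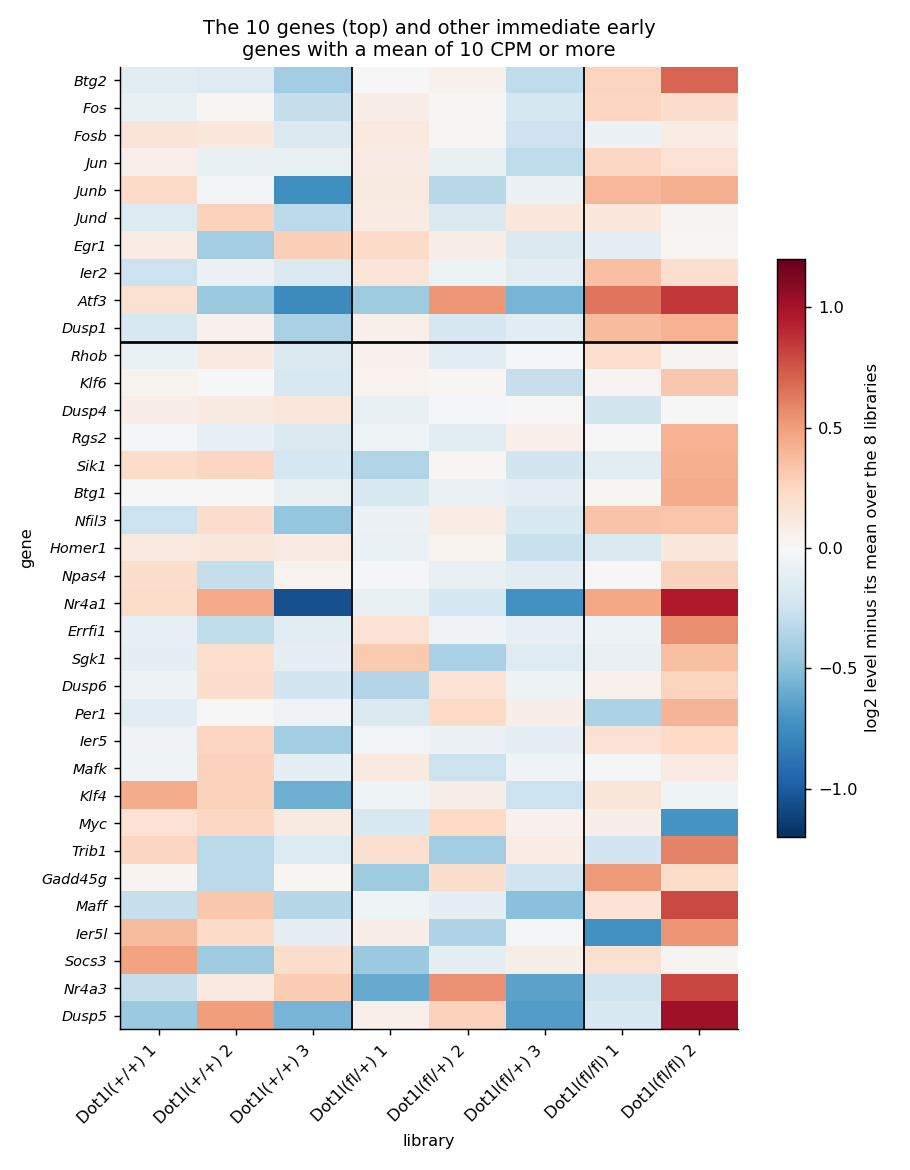
Level of the 10 genes (above the black line) and of the 25 other immediate early genes with a mean of 10 CPM or more (below it) in the 8 libraries, as log2 CPM minus the mean of the gene, from blue (low) to red (high). Red is concentrated in both Dot1l(fl/fl) columns for Btg2, Fos, Jun, Junb, Ier2, Atf3 and Dusp1, but not for Fosb, Jund and Egr1. For the genes below the line it is concentrated in the column labelled Dot1l(fl/fl) 2.

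Genes that drive the early response showed no common direction. Of 36 kinases, serum response factor and CREB genes, 15 had a higher and 21 a lower fitted level in Dot1l(fl/fl) than in Dot1l(+/+), with a median of -0.02, or -0.09 from Dot1l(fl/fl) 1 alone, and the medians of the other comparisons were -0.03 and -0.01. None of the 36 was called by edgeR or DESeq2 in any comparison, and 5 had an unadjusted p under 0.05 between Dot1l(fl/fl) and Dot1l(+/+). Among the more abundant were the kinases Mapk8 and Map2k2, with log2 differences between these groups of 0.03 ± 0.12 and 0.04 ± 0.13.

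The other AP-1 dimer partners, 12 of 14 tested, had a median of 0.09 between Dot1l(fl/fl) and Dot1l(+/+), with 7 higher, no call by edgeR or DESeq2, and 2 at an unadjusted p under 0.05. Their median turned to -0.07, with 3 of 12 higher, when the library labelled Dot1l(fl/fl) 2 was omitted. Atf4, the effector of the integrated stress response, differed by 0.14 ± 0.11, and Atf2, Mafg and Mafk by 0.06 ± 0.11, -0.21 ± 0.13 and 0.00 ± 0.20. In Dot1l(fl/+) against Dot1l(+/+) their median was -0.10, with 1 gene at an unadjusted p under 0.05.

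The BTG/TOB family and the CCR4-NOT complex, which Btg2 protein binds, had a median of 0.03 over 16 genes tested, with 9 higher and none called by edgeR or DESeq2 or at an unadjusted p under 0.05. From Dot1l(fl/fl) 1 alone the median was -0.04, with 6 higher. The poly(A)-binding protein gene Pabpc1 differed by 0.06 ± 0.10 between Dot1l(fl/fl) and Dot1l(+/+). The scaffold Cnot1 and the deadenylases Cnot7 and Cnot6 differed by -0.06 ± 0.12, -0.11 ± 0.11 and -0.19 ± 0.12. Btg1, the closest relative of Btg2, stood at 58.2 to 61.8 CPM in Dot1l(+/+) and at 62.5 and 84.4 in Dot1l(fl/fl).

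Btg2 is also a target of p53. Of 21 other p53 targets tested, 12 were higher and 9 lower in Dot1l(fl/fl) than in Dot1l(+/+), with a median of 0.10, no call by edgeR or DESeq2 and 3 at an unadjusted p under 0.05. From Dot1l(fl/fl) 1 alone the median was 0.06, and without Dot1l(fl/fl) 1 it was -0.03. Cdkn1a, the cell cycle inhibitor p21, stood at 57.2, 53.7 and 40.2 CPM in Dot1l(+/+) and at 76.3 and 58.3 in Dot1l(fl/fl), a log2 difference of 0.42 ± 0.16 (edgeR adjusted p = 0.397). Plk2, a kinase also induced by activity, differed by 0.41 ± 0.14, and Ei24 and the apoptosis gene Bax by 0.13 ± 0.11 and 0.11 ± 0.13.

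Heat shock genes respond to dissociation as well. Of 11 tested, 9 were higher in Dot1l(fl/fl) than in Dot1l(+/+), with a median of 0.16, and 6 with a median of 0.17 from Dot1l(fl/fl) 1 alone. Against Dot1l(fl/+), 8 were higher with a median of 0.03, and 6 with a median of 0.08 from Dot1l(fl/fl) 1 alone. They belong to the response that led to the choice of the members, so they are described without a test and are no independent support. Their summed level was 3541 to 3791 CPM in Dot1l(+/+), 3710 to 4069 in Dot1l(fl/+) and 4027 to 4212 in Dot1l(fl/fl). Hspa8, a constitutive chaperone, stood at 397, 580.5 and 465.4 CPM in Dot1l(+/+), 483.1, 602 and 427.8 in Dot1l(fl/+), and 633.6 and 638 in Dot1l(fl/fl), a log2 difference of 0.40 ± 0.13 from Dot1l(+/+). Hsp90ab1, Hsph1 and Hsp90aa1 differed by 0.16 ± 0.07, 0.16 ± 0.10 and 0.03 ± 0.11. What part dissociation has in the levels of the members was not tested.

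Genes that follow the early wave in active neurons had a median of 0.04 over 15 tested between Dot1l(fl/fl) and Dot1l(+/+), with 8 higher, no call by edgeR and 4 at an unadjusted p under 0.05. This median moved with single libraries, being 0.25 from Dot1l(fl/fl) 1 alone, -0.04 without Dot1l(fl/fl) 1 and 0.42 without Dot1l(+/+) 2. Vgf differed by 0.61 ± 0.15 (edgeR adjusted p = 0.180) and was the 1 gene that DESeq2 called, at 0.61 ± 0.16 (DESeq2 adjusted p = 0.0118). Over all genes, DESeq2 called 4.77% of those with an adjusted p in this comparison. The Vgf call uses the Dot1l(fl/fl) libraries on which the members were chosen, and Vgf is among the 5 genes most like Btg2. The call is therefore no independent support. Scg2, a granin, and Nrn1, a neurite growth factor, differed by 0.04 ± 0.10 and -0.20 ± 0.14.

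**Figure D4:**
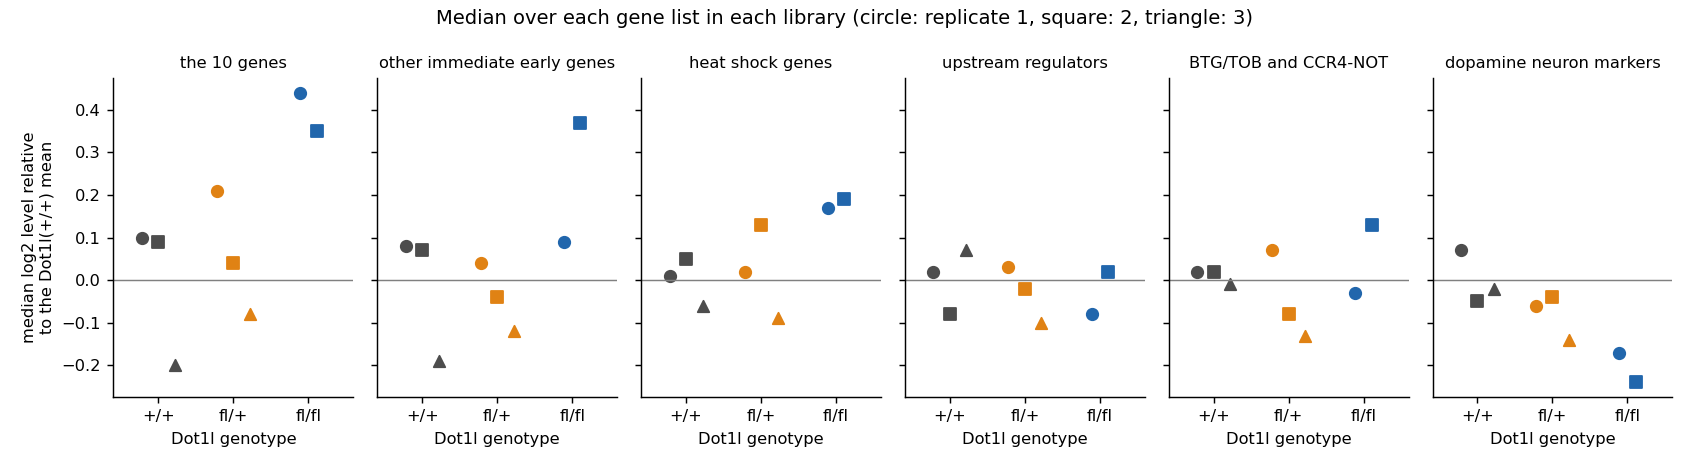
Median over each of 6 gene lists in each library, as log2 level relative to the mean of the Dot1l(+/+) libraries; points are libraries. The 10 genes reach 0.44 and 0.35 in the Dot1l(fl/fl) libraries, the other immediate early genes 0.09 and 0.37, and the DA markers lie below 0 in both.

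Other cells in the sort also carry early genes, so their markers are set beside the members. Microglia or macrophage markers summed to 118 to 149 CPM in Dot1l(+/+), 112 to 154 in Dot1l(fl/+) and 141 to 158 in Dot1l(fl/fl), with 8 of 10 higher in Dot1l(fl/fl) than in Dot1l(+/+) and none called by edgeR or DESeq2. Their median was 0.17, or 0.22 from Dot1l(fl/fl) 1 alone and -0.08 without Dot1l(fl/fl) 1. Endothelium markers summed to 6.49 to 10.3, 4.40 to 17.5 and 10.2 to 12.6 CPM, with Tek and Cdh5 at 0 in some libraries and a median of 0.67, or 0.47 and -0.08 in the same fits. Blood markers summed to 13.7 to 18.1, 11.9 to 19.4 and 17.0 to 40.4 CPM, the highest in the library labelled Dot1l(fl/fl) 2. The blood median was 0.80 with 6 of 7 genes higher, and -0.32 with 1 higher when that library was omitted.

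Progenitor markers, at 228 to 269, 233 to 249 and 230 to 248 CPM, and mural or meningeal markers, at 1.74 to 4.86, 3.30 to 7.03 and 2.02 to 4.15 CPM, overlapped between genotypes. So did neuroblast, glutamatergic and serotonergic markers. The serotonergic list had 3 genes tested, with sums of 0.309 to 3.03, 0.336 to 2.43 and 0.360 to 1.26 CPM. Their log2 differences between Dot1l(fl/fl) and Dot1l(+/+) had SEs of 1.53 to 2.65, so the serotonergic medians given below are imprecise. Oligodendrocyte precursor markers summed to 9.19 to 14.1 CPM in Dot1l(+/+) and 7.49 to 9.07 in Dot1l(fl/fl). Both Dot1l(fl/fl) sums were thus below every Dot1l(+/+) sum, but none of the 5 genes was so by itself. The lowest sum, 5.17 CPM, was in Dot1l(fl/+) 2, while the other Dot1l(fl/+) sums lay above both Dot1l(fl/fl) sums. From Dot1l(fl/fl) 1 alone the medians against Dot1l(+/+) were -0.52 for progenitor, 0.71 for mural or meningeal, -0.11 for neuroblast, -0.53 for oligodendrocyte precursor, -0.02 for glutamatergic and -0.48 for serotonergic markers, and from both libraries -0.23, 0.02, -0.06, -0.44, 0.00 and -1.29. GABAergic neuron markers summed to 204 to 225, 196 to 231 and 235 to 264 CPM, the last in Dot1l(fl/fl). DESeq2 called 1 of the 6 genes, against 4.77% of the genes with an adjusted p, and edgeR called none. The most abundant of them, the vesicular GABA transporter Slc32a1, differed by 0.37 ± 0.11, while 4 of the 6 were lower in Dot1l(fl/fl) than in Dot1l(+/+), with a median of -0.25, or -0.31 from Dot1l(fl/fl) 1 alone, 0.12 without Dot1l(fl/fl) 1 and 0.26 without Dot1l(+/+) 3. Of the 10 DA markers, 9 were lower in Dot1l(fl/fl) than in Dot1l(+/+), 7 with both libraries below every Dot1l(+/+) library, against 11.6% of all genes. Their median was -0.27, or -0.18 with 8 lower from Dot1l(fl/fl) 1 alone. The edgeR test called none of them, with 6 at an unadjusted p under 0.05, and DESeq2 called 3, against 4.77% of the genes with an adjusted p. The part of these cells in the levels of the members was not tested.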

How the data were processed

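RNA of sorted neurons was sequenced from stranded libraries (NEBNext). Per the labels, the submitters' processing notes name bcl2fastq 2.17, Trimmomatic 0.30, DESeq2 1.10.1 and GRCm38.p4; the aligner, the counter and its strand setting are not given in the sources used here. The deposited files hold raw counts per gene and library, made by the authors. Of the 3 deposited comparison tables only the column that pairs identifiers with symbols was used; their fold changes and p-values were not. There were 0 columns of other per-sample values.

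The counts were fitted in R 4.3.3 with edgeR 4.0.16 (filterByExpr, TMM, quasi-likelihood test, all 8 libraries, Benjamini-Hochberg over all 17988 genes tested, threshold 0.05). CPM are counts scaled to a common library size with TMM factors, and log2 CPM used a prior count of 2. Levels per kilobase used GENCODE M21 exon lengths. The fit was tested on simulated data. DESeq2 1.42.0, other scalings and filters, a replicate block, a length and GC offset, and each library left out were alternatives.

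Groups came from the genotype labels. The members and the gene lists were chosen with earlier results of these data known. Named beside the members were the 4 most abundant tested genes of each pathway list, any gene past the threshold, and the 5 genes most like Btg2 and Fos. Some genes that this rule names are not reported here. Libraries are pools of embryos, and p-values measure the spread between pools. A library's floor of 3 counts is 0.0687 to 0.220 CPM, far below every member, and covers counting error only.

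Replicates of a genotype differed by more than sampling noise (chi-square per degree of freedom of 16.98 to 40.47). Same-numbered libraries of different genotypes did not deviate together more than others did. Over genes, their deviations from the group means correlated at -0.031 to 0.045 in 7 pairs and -0.051 to 0.045 in the 14 other pairs. Over genes with a mean of 10 CPM or more, the values were -0.12 to 0.145 and -0.219 to 0.219. By construction, both Dot1l(fl/fl) libraries deviate equally from their mean, in opposite directions, so pairs with them carry little information. The check does not exclude shared litters, and Dot1l(+/+) 3 and Dot1l(fl/+) 3 were both lowest of their genotype for most members.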

Additional observations from a re-analysis of the deposited data

How the results depend on the processing

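In the comparison of Dot1l(fl/+) with Dot1l(+/+), no member and none of the other immediate early genes passed the test under any of the 17 alternatives, and the smallest adjusted p of a member was 0.446 (edgeR, Jund without Dot1l(+/+) 2). The sign of 8 members turned when 1 library was left out. Over those fits the log2 fold change ran from -0.16 to 0.04 for Jun, -0.13 to 0.20 for Egr1, -0.01 to 0.16 for Fos, -0.19 to 0.25 for Junb, -0.05 to 0.26 for Jund, -0.02 to 0.20 for Dusp1, -0.20 to 0.53 for Atf3 and -0.17 to 0.02 for Fosb. Btg2, at 0.07 to 0.26, and Ier2, at 0.07 to 0.21, kept their sign. The member median ran from -0.01 to 0.15.

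In the descriptive comparisons the member median against Dot1l(+/+) was 0.40 and ran from 0.29 to 0.46 over the libraries left out; against Dot1l(fl/+) it ran from 0.22 to 0.39. Other immediate early genes past the threshold against Dot1l(+/+) numbered 1 with no filter, Nr4a1, which also passed against Dot1l(fl/+). With single libraries left out, 1 passed, Nfil3 without Dot1l(+/+) 2. Both genes belong to the response that led to the choice, so these calls are no independent support. The alternatives for the counts of members above every control library were chosen after seeing the data; they gave 7 to 8 against Dot1l(+/+) and 5 to 8 against Dot1l(fl/+), the 5 under the length and GC offset.

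Each litter gave an embryo of every genotype. However, no source used here ties a replicate number to a set of litters, so the replicate block is an alternative. Same-numbered libraries did not deviate together more than others, which does not exclude shared litters. With the replicate block and the length and GC offset together, the member median against Dot1l(+/+) was 0.23, with Btg2 at 0.50, Fos at 0.14 and Ier2 at 0.32. Over all genes the replicate block gave 0, 6 and 4 calls in the comparisons of Dot1l(fl/+) with Dot1l(+/+), Dot1l(fl/fl) with Dot1l(+/+) and Dot1l(fl/fl) with Dot1l(fl/+), against 0 without it, and 0, 17 and 9 with the offset. In the same order, no filter gave 11, 106 and 14, DESeq2 0, 226 and 1, a mean count of at least 50 gave 0, 2 and 0, leaving out Dot1l(+/+) 2 gave 0, 75 and 0, leaving out Dot1l(fl/fl) 1 gave 0, 4 and 7, and leaving out the library labelled Dot1l(fl/fl) 2 gave 0, 50 and 7. The cause was not tested. With 2 libraries of Dot1l(fl/fl), of which 1 has Dot1l in the Dot1l(+/+) range, the spread of that genotype rests on a single difference, and where a fit leaves 1 of them the lone library is assumed to vary like the other groups.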
